A study of Arabidopsis thaliana with 6 samples.

Results

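The genes described here are nuclear genes of Arabidopsis thaliana whose transcript level was even across the 3 control libraries and lower in all 3 doxycycline libraries. They were chosen from these values. A gene had to have an identifier from AT1G to AT5G and an average across the 6 libraries of no less than 5 FPKM, a read count scaled for transcript length and for the size of the library. Its highest control was allowed to be at most 1.5 times its lowest control, and its highest doxycycline value at most its lowest control divided by 1.5. Of 33532 identifiers in the deposited table, 13874 were nuclear and reached that average, 4131 of these were even in controls, and 88 met the whole rule. Because the rule used every library, the difference between the groups is a description of these 88 genes and carries no test.

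All libraries came from whole wild-type seedlings of the Col-0 ecotype, the common laboratory strain. Seedlings spent 10 days on solid Murashige and Skoog medium with no antibiotic (control, 3 libraries) or with 5 µg/mL doxycycline (3 libraries). No mutant allele or transgene is named in the labels, and both groups share strain, age and medium. The design text calls the 3 libraries of each group biological replicates without saying whether plates or harvests were separate.

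Doxycycline is a tetracycline antibiotic that binds bacterial-type ribosomes, among them those of mitochondria and plastids, and the series title names impaired mitochondrial translation as its subject. The organelles take most of their proteins from nuclear genes, so signals from a disturbed organelle to the nucleus, called retrograde signals, are a classic topic of plant cell biology. Mitogen-activated protein kinases, calcium-dependent kinases, immune receptors and hormone pathways are among the other routes by which a seedling adjusts nuclear transcription. Whether less RNA per cell or fewer cells of a type lies behind a lower level cannot be told apart in whole seedlings.

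The 88 genes made up 2.13% of the 4131 nuclear genes even in controls. The mirror rule, with every doxycycline library at least 1.5 times above the highest control, took 81 genes, or 1.96%. Both shares were near each other, while the median of the even genes lay at -0.09 log2 and that of all 19035 genes tested at -0.29 log2 (doxycycline minus control on log2(FPKM + 1)). For the 88 genes the log2 difference ranged from -1.96 to -0.63, with a median of -0.94. Limma with Benjamini-Hochberg adjustment called 0 of the 19035 genes lower at an adjusted p under 0.05 (0%), and so 0 of the 88. Unadjusted p was under 0.05 for 4876 genes, and limma with robust variances also called 0. These counts rest on single libraries: without control 1 the rule took 2133 genes. Limma then called 6777 of the 19035 genes lower, all 88 among them. The 88 were chosen for separate groups in these same libraries, so this call is no test of them. Without control 2, control 3 or doxycycline library 3 the rule took 240, 197 and 170 genes. Groups that do not overlap, with doxycycline lower, were found in 25.7% of all genes tested and in 30.5% of those even in controls. With doxycycline higher the shares were 9.59% and 19.6%.

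**Figure D1:**
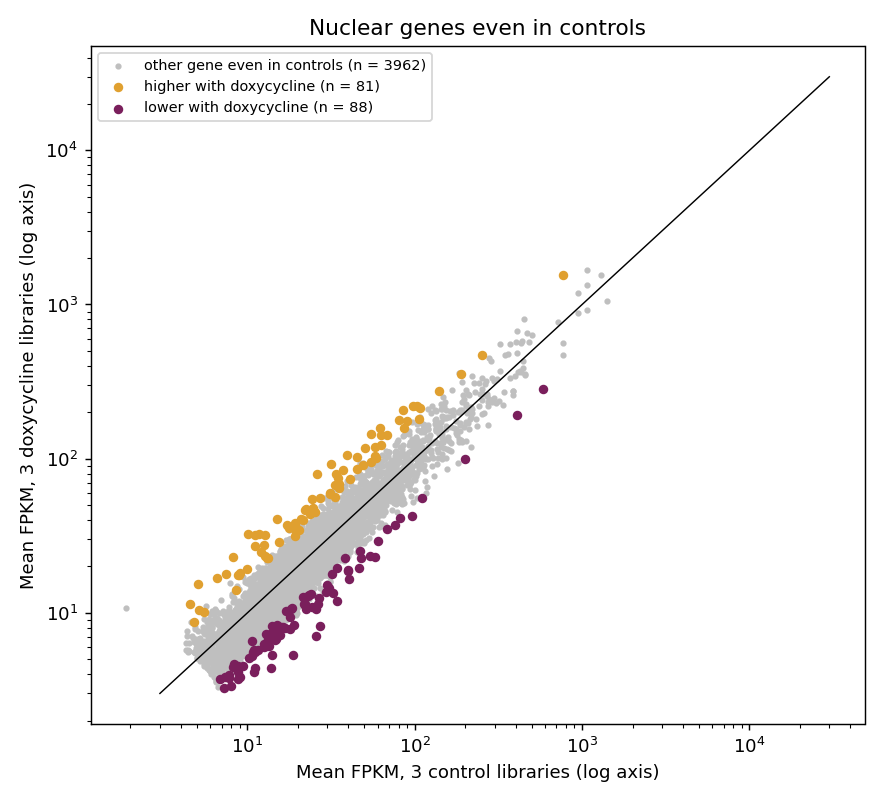
Mean FPKM of the 3 doxycycline libraries (vertical log axis) against that of the 3 control libraries (horizontal log axis) for the 4131 nuclear genes even in controls, 1 point per gene, with the line of equality. The 88 genes with lower doxycycline values lie below the line, at control means of 6.82 to 584 FPKM, and the 81 of the mirror rule lie above it.

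Levels of the 88 genes were moderate. Their control means ran from 6.82 to 584 FPKM with a median of 17.9, and their doxycycline means from 3.26 to 285 FPKM with a median of 8.22. In 13 genes the control mean was under 10 FPKM, in 52 it lay between 10 and 30, in 19 between 30 and 100, and in 4 above 100. The ratio of control mean to doxycycline mean ran from 1.63 to 3.62 with a median of 2.05. It was at least 2 in 50 genes and at least 2.5 in 9.

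Although the rule set no limit on the spread among doxycycline libraries, these were close together. Their highest value was a median of 1.15 times the lowest in the 88 genes, against 1.17 times in all genes even in controls. Above 1.5 times were 9 genes. The widest was AT5G50335, for an uncharacterized protein, at 3.71, 3.53 and 13.9 FPKM in doxycycline libraries 1 to 3 against 28, 24.5 and 24 FPKM in controls 1 to 3. Doxycycline library 3 therefore set the distance between the groups in that gene.

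Evenness in controls does not mean that the controls took no order. Control 1 was the lowest control in 62 of the 88 genes and control 2 the highest in 48. Among all genes even in controls, control 1 was the lowest in 48.1% and control 2 the highest in 51.7%. Doxycycline library 3 was the highest of its group in 48 of the 88 genes, and in 50.3% of the even genes.

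At the edges of the rule, the gap between groups was 1.501 in AT1G69910 and 1.503 in ARF11 and AT1G20670, just inside (lowest control over highest doxycycline value). It was 1.496 in AT5G47180 and CLC2 and 1.499 in AT2G39170, just outside. For evenness, AT2G01600, AT4G29790 and AT1G13350 were just inside, with a highest control 1.486, 1.489 and 1.49 times the lowest. AT1G76580, AT3G06340 and AT2G39980 were just outside at 1.505, 1.507 and 1.508. For the level, ACA.l, AT4G16900 and APRR8 were just inside at means of 5.26, 5.27 and 5.6 FPKM, and AT3G22072, ATG2 and AT4G38940 just outside at 4.66, 4.68 and 4.83 FPKM.

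**Figure D2:**
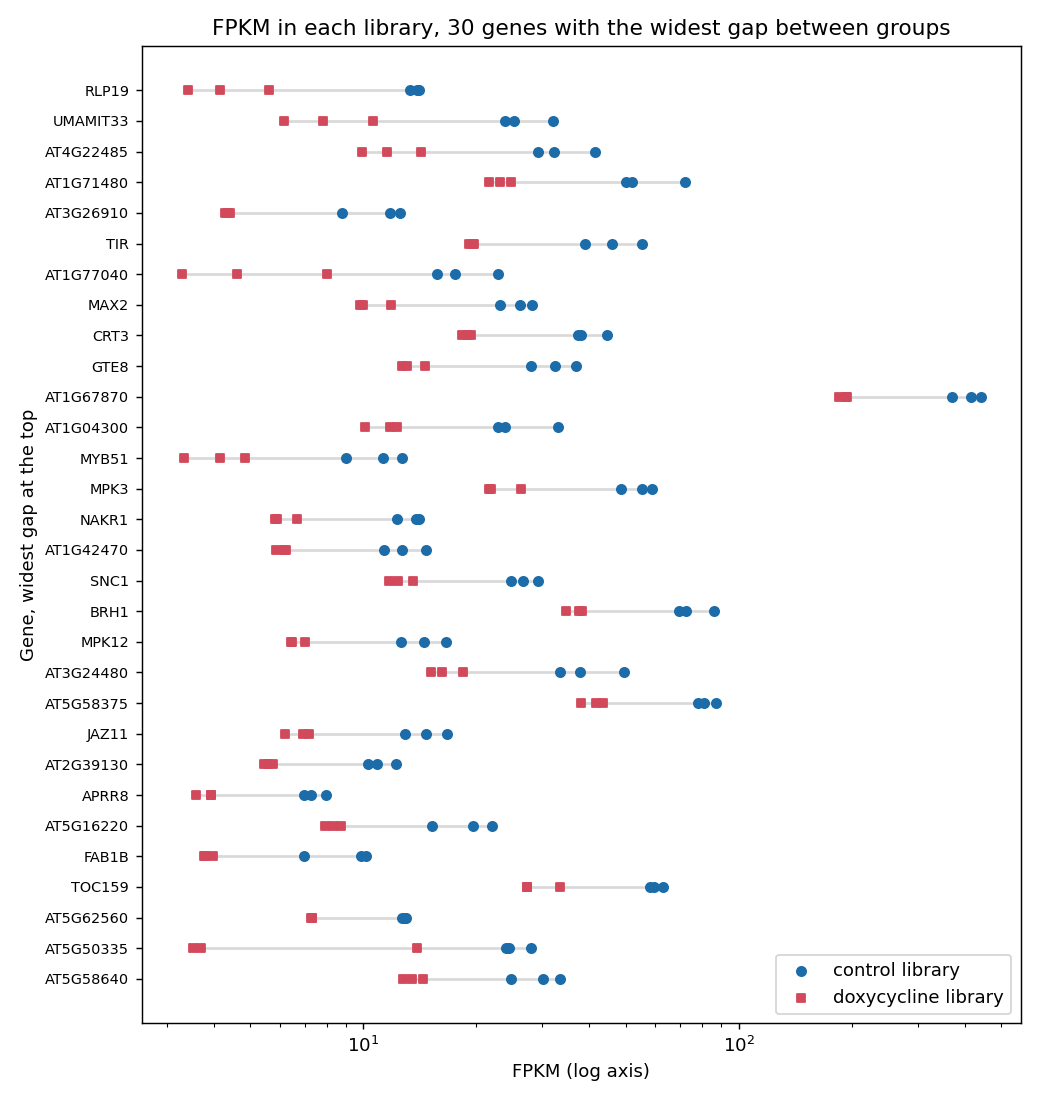
FPKM (log axis) of the 30 genes with the widest gap between the groups, 1 row per gene and 1 mark per library, with circles for the 3 controls and squares for the 3 doxycycline libraries. RLP19 has the widest gap, with a lowest control 2.38 times its highest doxycycline value, and the 3 squares of AT5G50335 are the most spread out.

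Stretches upstream of 3 genes that stand for main groups of functions are shown: MAX2 of hormone signalling, and MYB51 and SNC1 of defence. Each is the 250 bases before the annotated start, read 5′ to 3′ on the gene's own strand from the RefSeq assembly TAIR10.1. Capitals mark TTGAC, the core of the W-box bound by WRKY transcription factors, on either strand, so that GTCAA is the same core on the other strand. In that assembly the stretches lie at chr2:17755819-17756068 (plus strand) for MAX2, chr1:6389149-6389398 (plus) for MYB51 and chr4:9505973-9506222 (minus) for SNC1, and no other annotated gene overlaps them.
MAX2: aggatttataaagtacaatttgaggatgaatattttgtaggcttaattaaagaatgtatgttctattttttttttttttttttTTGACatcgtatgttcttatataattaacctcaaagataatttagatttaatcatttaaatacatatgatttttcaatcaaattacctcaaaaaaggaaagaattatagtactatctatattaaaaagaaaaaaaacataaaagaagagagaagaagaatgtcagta
MYB51: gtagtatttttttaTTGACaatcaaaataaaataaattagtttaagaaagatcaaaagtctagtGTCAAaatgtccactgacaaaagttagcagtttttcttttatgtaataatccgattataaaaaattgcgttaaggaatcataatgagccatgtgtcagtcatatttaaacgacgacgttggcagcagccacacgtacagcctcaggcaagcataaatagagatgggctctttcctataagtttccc
SNC1: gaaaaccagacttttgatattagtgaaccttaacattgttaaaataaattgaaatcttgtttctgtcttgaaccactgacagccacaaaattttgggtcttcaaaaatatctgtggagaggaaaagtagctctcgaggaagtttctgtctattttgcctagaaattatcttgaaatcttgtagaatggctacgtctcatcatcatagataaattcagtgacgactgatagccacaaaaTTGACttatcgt

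The core was found in 1 place upstream of MAX2, in 1 upstream of SNC1 and in 2 places upstream of MYB51. Over the 87 protein-coding members, 45 upstream stretches (51.7%) held it, against 43.9% of those of genes even in controls, 41.8% of those of the mirror set and 44.9% of all 27443 protein-coding genes with such a stretch. TGGGCC, one form of the site II element known from promoters of growth and organelle genes, was in 13.8% of the members' stretches, 22.8% of the mirror set's, 21.0% of the even genes' and 13.7% of all. The G-box CACGTG was in 9.20%, against 7.0% of the even genes and 6.49% of all, and TATAAA in 48.3%, against 45.0% and 47.3%. Shares for AAAATATCT (2.30%), the evening element of clock-regulated promoters, for TGTCTC (11.5%), which auxin response factors bind, and for GNATATNC (5.75%), the phosphate-response element, stood beside 2.36%, 10.9% and 5.46% of all genes. GCCGCC, the ethylene-response GCC core, was in 1.15% against 1.87%, and AAACCCTA in 4.6% against 4.49%. CCACGT was in 9.20% against 8.23%, AGATTT in 29.9% against 34.4% and GATAA in 58.6% against 54.9%. Both strands were searched and motifs were counted whether or not they overlapped. A match is a string of letters and shows no binding.

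The genes fall into 9 groups by the function the reference or textbook knowledge gives them. This sorting was made with the values known. The groups are 11 genes of immune receptors and defence signalling, 9 of other kinases, phosphatases and signalling, 10 of hormone response and the ubiquitin system, 13 of transcription, chromatin, DNA repair and RNA, 10 of membrane traffic, 7 of transporters and pumps, 8 of plastid, mitochondrion and metabolism, 8 of the cell wall and secreted proteins, and 12 with another or no known role.

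Receptors of the immune system come first. RLP19 (AT2G15080) encodes a receptor-like protein, a class of cell-surface proteins with leucine-rich repeats and no kinase domain. It stood at 13.3, 13.9 and 14.1 FPKM in control libraries 1 to 3 and 4.15, 3.42 and 5.6 FPKM in doxycycline libraries 1 to 3. The means were 13.8 ± 0.408 and 4.39 ± 1.11 FPKM (SD, n = 3 each), a 3.14-fold difference, and the 3 controls lay within 1.06 times of each other.

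SNC1 (AT4G16890) encodes an intracellular receptor of the TIR-NBS-LRR class, whose overactive form keeps plants in a constant immune state. It stood at 26.6, 29.2 and 24.7 FPKM without the drug and 11.7, 13.6 and 12.4 FPKM under doxycycline. RPS6 (AT5G46470), a receptor of the same class for a bacterial effector, stood at 10.6, 11.5 and 12.9 FPKM without the drug and 5.64, 5.26 and 6.31 FPKM under doxycycline. AT4G16900, annotated to the same class, stood at 6.73, 7.81 and 5.92 FPKM and 3.86, 3.37 and 3.92 FPKM. In each of these the groups stand apart by the rule.

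SNC1 and AT4G16900 sit on the same strand of chromosome 4 in the RPP5 cluster of related receptor genes, separated by 2 other measured genes. Of 5 tested TIR-NBS-LRR genes of the cluster 3 lay below every control and 0 above, beside 25.7% and 9.59% of all genes tested. The 3 include SNC1 and AT4G16900, which the rule placed there. The third of these, AT4G16960, was uneven in controls, at 1.58, 5.18 and 2.33 FPKM and 0.875, 1.29 and 1.27 FPKM. RPP4 (AT4G16860) stood at 22.3, 8.71 and 3.46 FPKM without the drug and 13.8, 15.2 and 17.1 FPKM under doxycycline. AT4G16880, a neighbour not counted among the 5, was above every control, at 14.3, 3.17 and 2.01 FPKM and 26.8, 28.2 and 23.9 FPKM. RPP5 (AT4G16950) stood at 26.4, 10.8 and 6.95 FPKM and 20.4, 21.0 and 22.6 FPKM. Both RPP4 and RPP5 thus had controls that differed several-fold, with the doxycycline libraries inside their range. The search for near-identical copies found none for SNC1 or AT4G16900.

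Of 91 annotated TIR-NBS-LRR genes 46 were tested, 3 met the rule, 23 (50.0%) lay below every control and 0 above, and limma called 0. The 23 include the 3 members, which the rule placed there, and the share over all genes tested was 25.7%. Transcripts of these receptors are long, with a median of 4098 bases against 1705 for all genes tested. Of the 44 that were at least 3000 bases long 52.3% lay below every control, against 53.8% of all 2070 tested genes of that length, with median log2 differences of -0.64 and -0.59.

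TIR (AT1G72930), a short protein with the TIR domain and little else, stood at 45.9, 55.4 and 39.0 FPKM without the drug and 19.7, 19.5 and 19.1 FPKM under doxycycline. Its transcript shares 96.0% identity with that of AT1G72910 over 72% of its length, so reads may have been split between them. CRT3 (AT1G08450) encodes a calreticulin of the endoplasmic reticulum known for folding the receptor EFR. It stood at 37.4, 38.1 and 44.5 FPKM without the drug and 18.9, 19.4 and 18.3 FPKM under doxycycline. The other calreticulins also lay below every control, as did 25.7% of all genes tested, but were not even in controls. CRT1a stood at 62.7, 161 and 114 FPKM against 57.6, 50.0 and 50.8 FPKM. CRT1b stood at 57.6, 105 and 90.8 FPKM against 53.1, 41.0 and 53.1 FPKM.

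Downstream of the receptors, MPK3 (AT3G45640) is a mitogen-activated protein kinase of the immune response. It stood at 58.8, 55.3 and 48.6 FPKM without the drug and 21.9, 21.7 and 26.3 FPKM under doxycycline, with means of 54.2 ± 5.18 and 23.3 ± 2.58 FPKM (SD, n = 3 each). MPK6, its closest partner in immunity, stood at 47.7, 38.7 and 48.6 FPKM without the drug and 34.1, 32.6 and 40.9 FPKM under doxycycline, where the groups overlapped. MPK4 stood at 21.1, 35.9 and 32.3 FPKM and 25.3, 27.9 and 24.9 FPKM, also overlapping. MPK12 (AT2G46070), a kinase of guard cells, met the rule at 16.6, 12.6 and 14.5 FPKM against 6.41, 6.99 and 6.47 FPKM. The groups of both members are separate by the rule. Of 16 mitogen-activated protein kinase genes tested, 2 met the rule, 9 lay below every control and 0 above. The 9 include the 2 members, which the rule placed there. Over all genes tested the shares were 25.7% and 9.59%, and transcript length was not matched. The median log2 difference of the family was -0.45.

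MYB51 (AT1G18570), a transcription factor that promotes synthesis of indole glucosinolates, stood at 12.7, 8.98 and 11.3 FPKM without the drug and 3.34, 4.17 and 4.85 FPKM under doxycycline. It was the single member among 28 tested genes of glucosinolate synthesis and regulation, of which 2 were even in controls. Of the 28, 15 lay below every control, MYB51 among them by the rule (25.7% of all genes tested did). Limma called 0 of them, and their median log2 difference was -1.16. CPK28 (AT5G66210), a calcium-dependent kinase that limits immune signalling, stood at 19.7, 24.1 and 29.2 FPKM without the drug and 11.6, 10.2 and 10.7 FPKM under doxycycline. CPK32 (AT3G57530) of the same family stood at 32.0, 26.5 and 31.0 FPKM and 14.4, 15.1 and 16 FPKM. These were 2 of 24 tested genes of that family, of which 6 lay below every control and 1 above, with a median log2 difference of -0.38. The 6 include CPK28 and CPK32 by the rule, and the share is close to the 25.7% of all genes tested.

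NPR3 (AT5G45110), a salicylate receptor, stood at 15.6, 13.3 and 16.4 FPKM without the drug and 8.73, 6.98 and 8.63 FPKM under doxycycline. NPR1 and NPR4, the other receptors measured, had log2 differences of -0.20 and -0.08, where NPR1 stood at 9.13, 12.3 and 9.72 FPKM and 8.68, 8.26 and 9.70 FPKM. XLG2 (AT4G34390), an extra-large G protein of immune signalling, stood at 7.30, 8.07 and 10.8 FPKM and 4.17, 3.59 and 4.61 FPKM. Of its relatives, XLG3 lay at 12.9, 13.6 and 10.9 FPKM and 7.24, 8.21 and 8.81 FPKM, with a smaller gap. XLG1 had a log2 difference of -0.31. Both relatives also lay below every control, as did 25.7% of all genes tested.

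**Figure D3:**
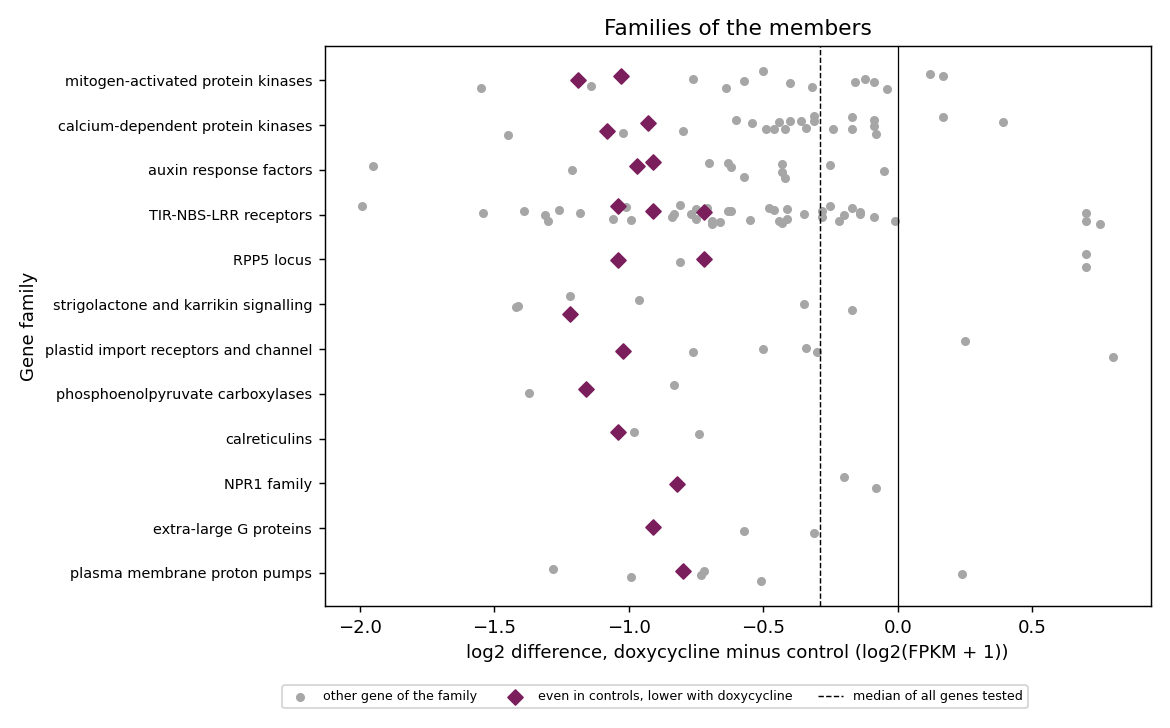
Difference of doxycycline and control means on log2(FPKM + 1) (horizontal axis) for the tested genes of 12 families that hold a member, 1 mark per gene, with diamonds for genes that are even in controls and lower with doxycycline, circles for their relatives, and a dashed line at the median of all genes tested (-0.29). The position of a diamond is set by the rule, and the circles show that relatives range from well below the diamonds to above 0. The RPP5 locus is part of the TIR-NBS-LRR class.

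Among hormone pathways, MAX2 (AT2G42620) encodes the F-box protein through which strigolactones and karrikins act. It stood at 23.2, 28.2 and 26.1 FPKM without the drug and 9.79, 9.98 and 11.9 FPKM under doxycycline, with means of 25.9 ± 2.51 and 10.5 ± 1.15 FPKM (SD, n = 3 each) and a 2.45-fold difference. The karrikin receptor gene KAI2 overlapped between groups, at 44.4, 34 and 23.4 FPKM and 27.4, 29.6 and 30.5 FPKM. D14, the strigolactone receptor gene (AT3G03990), also overlapped, at 48.1, 82.1 and 80.1 FPKM and 48.5, 56.2 and 54.9 FPKM. Of the repressors that MAX2 marks for destruction, SMAX1 (AT5G57710) stood at 18.6, 28.7 and 58.2 FPKM without the drug and 13.0, 14.4 and 11.5 FPKM under doxycycline, and SMXL7 (AT2G29970) at 6.8, 24.2 and 17.3 FPKM and 5.02, 4.84 and 4.42 FPKM. Both were below every control, but uneven among controls. The related genes AT1G07200 and AT2G40130 overlapped between groups, at 5.99, 20.5 and 13.1 FPKM and 5.54, 5.06 and 6.23 FPKM for the former and 0.355, 7.05 and 2.87 FPKM and 0.221, 0.423 and 0.265 FPKM for the latter.

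ARF2 (AT5G62000), an auxin response factor that mainly represses, stood at 91.4, 106 and 135 FPKM without the drug and 50.6, 56.8 and 59.2 FPKM under doxycycline. ARF11 (AT2G46530) stood at 11.6, 12.7 and 13.2 FPKM and 4.93, 6.18 and 7.73 FPKM. They were 2 of 13 tested auxin response factors. Of these 13, 9 lay below every control, the 2 members among them by the rule, and 0 above. Over all genes tested the shares were 25.7% and 9.59%, and 53.8% of those of at least 3000 bases lay below. The counts of the family were not matched for transcript length. JAZ11 (AT3G43440), a member of the family that represses jasmonate responses, stood at 12.9, 14.7 and 16.7 FPKM without the drug and 7.18, 6.19 and 6.92 FPKM under doxycycline.

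BRH1 (AT3G61460), a RING-H2 protein named for its response to brassinosteroid, stood at 69.4, 72.5 and 86.0 FPKM and 38.3, 34.8 and 37.6 FPKM. AIR12 (AT3G07390), an auxin-induced protein of root cultures, had a ratio of control to doxycycline means of 1.85. Among ubiquitin-system genes, AT5G62560, with a U-box and ARM repeats, had closely spaced libraries, at 13.0, 12.9 and 12.7 FPKM without the drug and 7.33, 7.28 and 7.31 FPKM under doxycycline.

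Among genes of transcription and chromatin, GTE8 (AT3G27260), a bromodomain protein of the global transcription factor group, stood at 28, 36.9 and 32.4 FPKM without the drug and 12.7, 13.1 and 14.6 FPKM under doxycycline. NAC050 (AT3G10480), a NAC transcription factor, was the most even of the 88 in controls as deposited, at 13.5, 13.6 and 13.6 FPKM against 7.13, 6.55 and 8.31 FPKM. PFT1 (AT1G25540), the Mediator subunit MED25 that links transcription factors to RNA polymerase, stood at 10.4, 12 and 10.3 FPKM and 5.25, 5.55 and 6.39 FPKM. ERCC1 (AT3G05210), part of the nuclease of nucleotide excision repair, stood at 21.1, 21.8 and 21.2 FPKM and 12.2, 12.1 and 13.8 FPKM.

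HUA1, an RNA-binding protein of flower development, SMP2, a splicing factor, CID4 and the pseudo-response regulator APRR8 had mean ratios of control to doxycycline of 2.2, 1.68, 1.75 and 1.93. The highest level of all was that of AT2G34480, for a protein of the L18ae family of cytosolic ribosomes, at 448, 643 and 661 FPKM without the drug and 292, 282 and 280 FPKM under doxycycline. AT1G77040, annotated as a glutamine transfer RNA of 72 bases, was listed at means of 18.7 ± 3.74 and 5.31 ± 2.43 FPKM (SD, n = 3 each). Its sequence is identical in 5 other annotated genes and its lowest value stands for an estimated 5 fragments, so its level is uncertain.

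In the membrane traffic group, TRS120 (AT5G11040), a subunit of the TRAPPII complex that tethers vesicles, stood at 8.06, 11.5 and 8.58 FPKM without the drug and 4.01, 4.78 and 4.78 FPKM under doxycycline. AT5G22780, for an alpha subunit of the AP-2 adaptor of endocytosis, stood at 13.0, 18.4 and 16.1 FPKM and 7.48, 8.20 and 8.61 FPKM, and shares 94.7% identity over 94% of its transcript with a second alpha subunit gene. FAB1B (AT3G14270), grouped with the kinases, makes a phosphoinositide of endosomes and stood at 6.96, 10.2 and 9.88 FPKM and 3.76, 3.98 and 3.79 FPKM. A Sec23/Sec24 family gene of vesicle budding, AT4G01810, had the smallest ratio of means of the 88, at 1.63.

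UMAMIT33 (AT4G28040), of a family of amino acid transporters, had the second widest gap, at 32.1, 23.8 and 25.3 FPKM without the drug and 6.17, 7.84 and 10.6 FPKM under doxycycline, a 3.3-fold difference of means. Its relative UMAMIT40 stood at 8.97, 12.9 and 10.1 FPKM and 4.78, 5.28 and 5.68 FPKM. HA5 (AT2G24520), a plasma membrane proton pump, stood at 7.20, 8.46 and 10.5 FPKM and 4.64, 4.58 and 4.44 FPKM, and was the single member among 18 tested proton pump genes, of which 11 were even in controls. Of the 18, 7 lay below every control, with a median log2 difference of -0.27 beside -0.29 over all genes tested. Of 11 annotated plasma membrane pumps 7 were tested and 5 lay below every control. HA5 is in both counts by the rule. Over all genes tested the share below every control was 25.7%, and transcript length was not matched. HA2, one of the main pumps of the plant, had a log2 difference of 0.24.

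NAKR1 (AT5G02600) encodes a metal-binding protein of phloem companion cells and stood at 14.1, 13.8 and 12.3 FPKM without the drug and 5.91, 5.83 and 6.66 FPKM under doxycycline. It is also a marker in the phloem list, in which 6 of 9 tested genes lay below every control, NAKR1 among them by the rule. The share over all genes tested was 25.7%, and the median log2 difference of the list was -0.77. The summed level of that list was 272 to 476 FPKM without the drug and 236 to 242 FPKM under doxycycline. The part of phloem content in the NAKR1 difference was not tested.

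TOC159 (AT4G02510), the main receptor for import of photosynthetic proteins into plastids, stood at 58.1, 62.9 and 59.5 FPKM without the drug and 27.3, 33.5 and 27.3 FPKM under doxycycline. The partner receptor TOC33 lay the other way, at 66.0, 51.1 and 55.2 FPKM against 105, 102 and 94.2 FPKM. The channel gene TOC75-III overlapped, at 25.5, 30 and 31.7 FPKM and 37.6, 34.9 and 31.6 FPKM, and Toc90 was lower at 13.6, 12.9 and 12.8 FPKM against 8.22, 9.69 and 9.05 FPKM. The import machinery at the outer envelope therefore held genes on both sides. A gene on the opposite strand overlaps TOC159, and since strand handling is not given, reads of the pair cannot be told apart.

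MFDX2 (AT4G21090), a ferredoxin of mitochondria, stood at 15.3, 17.9 and 20.4 FPKM without the drug and 9.68, 9.06 and 9.37 FPKM under doxycycline. AT2G39725, of the LYR family that assists mitochondrial iron-sulfur cluster assembly, stood at 6.49, 9.38 and 8.19 FPKM and 2.70, 3.04 and 4.29 FPKM. PPC2 (AT2G42600), a phosphoenolpyruvate carboxylase that refills the citric acid cycle, stood at 81.1, 109 and 100 FPKM and 40.3, 48.6 and 38.8 FPKM. Its relative PPC1 stood at 12.4, 63.0 and 38.3 FPKM without the drug and 11.8, 10.6 and 12 FPKM under doxycycline, uneven in controls, and PPC3 overlapped.

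For cell wall and secreted proteins, the glycine-rich protein gene AT1G67870 stood at 371, 441 and 417 FPKM without the drug and 185, 195 and 193 FPKM under doxycycline. AT3G26910, for a hydroxyproline-rich glycoprotein, stood at 8.81, 12.5 and 11.8 FPKM and 4.29, 4.43 and 4.36 FPKM. AT4G22485, for a lipid-transfer-like protein, stood at 41.5, 32.3 and 29.2 FPKM and 11.6, 14.3 and 9.96 FPKM. GAUT11, a galacturonosyltransferase of pectin synthesis, stood at 7.48, 7.85 and 9.10 FPKM and 4.53, 4.47 and 4.41 FPKM.

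Further genes with wide gaps or high levels have less known functions. AT1G71480, for a protein of the nuclear transport factor 2 family, stood at 50.2, 51.9 and 72.2 FPKM without the drug and 21.7, 23.1 and 24.7 FPKM under doxycycline. AT1G42470 encodes a Patched family protein, a relative of animal sterol carriers, and stood at 12.7, 11.4 and 14.7 FPKM and 6.23, 5.86 and 6.14 FPKM. AT2G39130, for a transmembrane amino acid transporter, stood at 10.9, 12.2 and 10.3 FPKM and 5.74, 5.43 and 5.58 FPKM.

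The Rdx-type selenoprotein homologue AT5G58640 and AT5G16220, with a PB1-type domain, had ratios of control to doxycycline means of 2.17 and 2.28. AT3G20390, for a protein of the L-PSP endoribonuclease family, was among the most abundant members, at 178, 199 and 220 FPKM without the drug and 90.8, 89.1 and 117 FPKM under doxycycline. AT5G58375, annotated as related to methyltransferases, stood at 78.2, 81.0 and 86.8 FPKM and 41.6, 38.0 and 43.5 FPKM.

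GAUT11 follows MYB51 directly along chromosome 1, on the same strand, with 4382 bases between them. The next gene, SOT17 of glucosinolate synthesis, stood at 7.84, 7.42 and 27.7 FPKM without the drug and 2.54, 2.37 and 2.75 FPKM under doxycycline, and the gene after it, RBL12, overlapped between groups. PPC2 and MAX2 are likewise close, with LSH10 between them, at 5.66, 36.1 and 18.5 FPKM and 1.39, 1.24 and 1.52 FPKM. With SNC1 and AT4G16900 these were the 3 pairs of members within 3 steps of each other in gene order. The chromosomes held 21, 14, 16, 17 and 20 members in order from 1 to 5.

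Each of the 36 gene lists of pathways and organ markers held 0 to 11 genes even in controls, and 8 lists held 0. Whether members were rarer in the lists than among other genes was not tested. In 4 lists there was 1 member each (MYB51, CRT3, HA5 and NAKR1) and in 32 none. The list of endoplasmic reticulum folding had 20 tested genes, 3 even in controls, and 7 below every control, CRT3 among them by the rule. The share below every control over all genes tested was 25.7%, and the median log2 difference of the list was -0.56. By keywords in the reference's product names, kinases gave 8 of 212 even genes (3.77%), transporters and channels 7 of 182 (3.85%), transcription factors 5 of 197 (2.54%), cell wall proteins 3 of 49 (6.12%) and defence proteins 3 of 16 (18.8%), beside 2.13% overall. Redox proteins gave 0 of 168 and 6 by the mirror rule, and RNA and ribosome proteins 2 of 246 (0.813%) and 7 by the mirror rule. The 3 defence proteins are the 3 TIR-NBS-LRR genes above, with longest annotated transcripts of 3578 to 4997 bases. Of even genes of at least 3000 bases 7.48% met the rule, and the class shares were not matched for length. Keywords miss genes whose product name lacks them: MYB51, MFDX2 and the ribosomal protein gene AT2G34480 fell in none of the named classes. The shares are therefore those of keyword matches.

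A feature the rule did not use was shared by many members: length. The median length of their longest annotated transcript was 2255 bases, against 1661 bases in all genes even in controls and 1227 bases in the mirror set. At least 3000 bases long were 27 of the 88 (30.7%), 8.75% of the even genes and 0 of the 81 of the mirror set. As a share of even genes, members went from 1.1% below 1000 bases through 1.3%, 1.47% and 2.46% to 7.48% at 3000 bases and more. The mirror rule went the other way, from 4.22% through 2.77%, 1.47% and 1.03% to 0%.

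The same order ran through the whole table. The median log2 difference over all genes tested was -0.06 below 1000 bases and -0.59 at 3000 bases and more. Against control 1 alone the medians went from 0.16 to -0.21, against control 2 from -0.24 to -0.96 and against control 3 from -0.10 to -0.58. Controls differed from each other by length as well, since control 2 minus control 1 went from 0.41 to 0.74 and control 3 minus control 1 from 0.26 to 0.34. The part of transcript length, or of whatever makes libraries differ by it, in the lower values of the long members was not tested. Among the long members were TOC159, FAB1B, AT1G01320, SNC1, RPS6, RLP19, TRS120, GTE8, ARF2 and PPC2. Protein-coding members under 2000 bases with the widest gaps were UMAMIT33, AT4G22485, AT1G71480, TIR, CRT3, AT1G67870, MYB51 and MPK3.

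**Figure D4:**
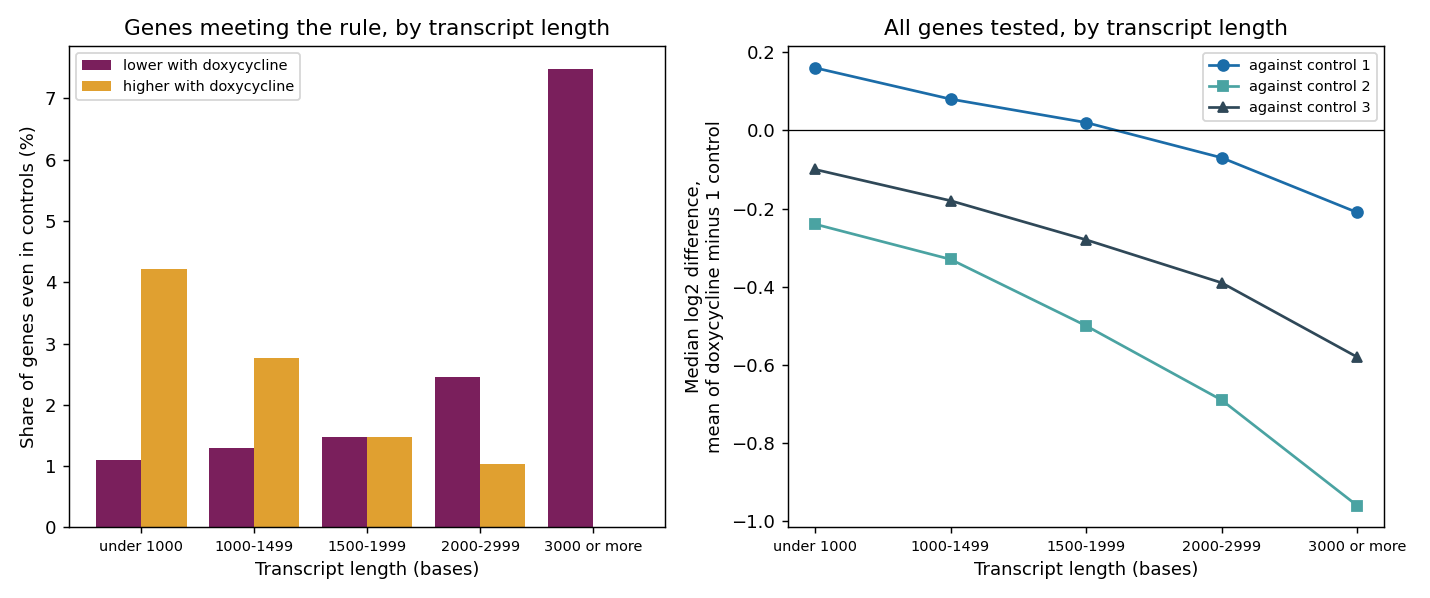
Left, share of genes even in controls (vertical axis, percent, from 0) that are lower or higher with doxycycline by the rule, in 5 classes of transcript length, with 7.48% lower and 0% higher in the longest class. Right, median over all genes tested of the mean doxycycline level minus that of 1 control on log2(FPKM + 1), with 1 line per control, each of which runs downward with length.

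Which genes qualified depended on how the libraries were scaled. Scaling the libraries by medians of ratios divided control 2 by 1.395 and control 3 by 1.157, but control 1 by 0.898 and the doxycycline libraries by 0.876 to 0.935. The median of all genes then moved from -0.29 to 0.00 log2. On that scale 92 genes met the rule, of which 11 were among the 88, and 119 met the mirror rule. After quantile normalization 66 met it, of which 24 were among the 88, and 82 met the mirror rule. Most members were still below every control: 85 of the 88 after median-of-ratios scaling and 79 after quantile normalization. Their median gaps were 1.27 and 1.29 instead of 1.64. The rule had set a gap of at least 1.5-fold beforehand, so these counts are no test of robustness. The share of all genes below every control was taken on the deposited scale alone. Controls stayed within 1.5 times of each other in 64 of the 88 after median-of-ratios scaling and in 68 after quantile normalization. Across the 88, the highest control was up to 2.2 and 2.34 times the lowest. This ratio went from 1.01 as deposited to 1.55 and 1.53 in NAC050, and from 1.03 to 1.57 and 1.56 in AT5G62560.

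On all 3 scales the rule took 9 genes: RLP19, AT3G26910, the transfer RNA gene AT1G77040, MAX2, GTE8, the TRAF-like gene AT1G04300, AT3G24480 with leucine-rich repeats, AT4G00520 for an acyl-CoA thioesterase, and AT2G01600 with an ENTH domain of clathrin-coated vesicles. FAB1B and AT4G29790 met it on the deposited and median-of-ratios scales. Quantile normalization alone kept a further 15, among them TIR, CRT3, MPK3, TOC159, PPC2, BRH1 and ARF2. SNC1, RPS6, MYB51, CPK28, NAKR1 and UMAMIT33 met it on the deposited scale alone. NPR3, PRA1.B3 and AT4G38040 no longer had separate groups on either other scale, and 6 more, among them XLG2, HA5 and AT4G16900, overlapped after quantile normalization.

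**Figure D5:**
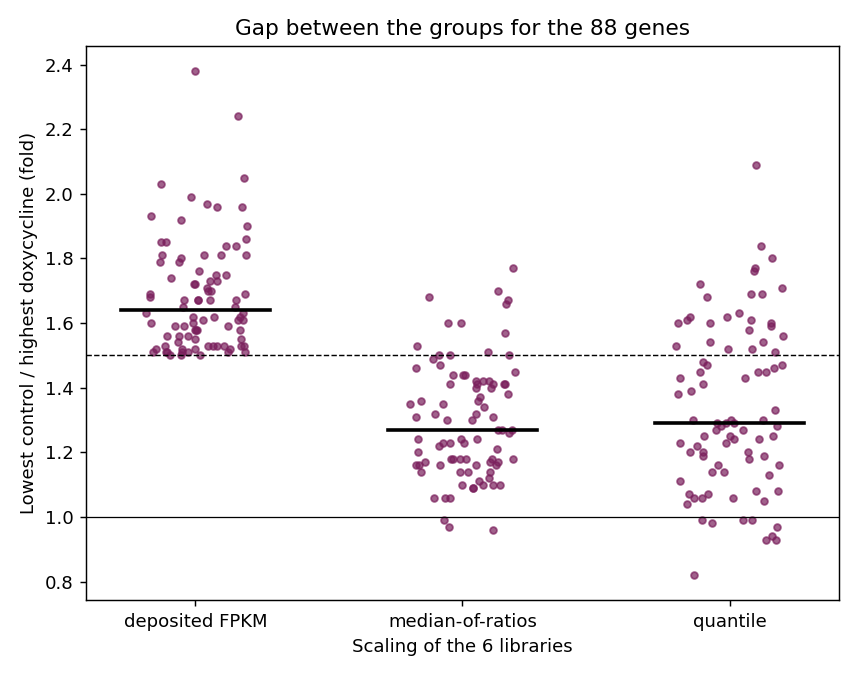
Lowest control divided by highest doxycycline value (vertical axis, fold) for the 88 genes, 1 point per gene, on the deposited scale and after median-of-ratios scaling or quantile normalization (horizontal axis), with the median as a bar, the rule's threshold of 1.5 dashed and equality as a solid line. The medians are 1.64, 1.27 and 1.29, and most points stay above 1 on every scale.

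Markers of organs and cell types were measured beside these results. The summed level of 15 leaf mesophyll genes was 99300, 30100 and 53100 FPKM in controls 1 to 3 and 89000 to 96800 FPKM under doxycycline. Root hair and epidermis genes summed to 21.2, 36.9 and 53.1 FPKM against 15.6 to 28 FPKM, and dividing-cell genes to 76.4, 162 and 71.1 FPKM against 76.2 to 81.4 FPKM. Guard cell genes summed to 76.0 to 89.9 FPKM without the drug and 79.7 to 87.2 FPKM under doxycycline. Trichome genes summed to 23.7 to 56.6 FPKM and 18 to 23.1 FPKM, and root endodermis and stele genes to 74.6 to 183 FPKM and 62.2 to 89.0 FPKM. The part of organ or cell type content in the differences of the members was not tested.

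Depth was judged from the size of the smallest values, at an estimated 18600000 to 21900000 fragments per library. On that scale the lowest library of a member held a median of 381 fragments, and 5 members had fewer than 100: AT1G77040, AT2G39725, AT5G50335, PRA1.B3 and AT3G48185. Another annotated gene overlapped 24 of the 88, on the opposite strand in 21, among them MPK3, NAKR1, UMAMIT33, FAB1B and TOC159. A near-identical copy elsewhere in the genome was found for 5.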

How the data were processed

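The authors deposited 1 table of FPKM values per gene identifier for 3 control and 3 doxycycline RNA-seq libraries; the unit is taken from the labels and the values. TopHat2 2.1.0, Cufflinks 2.2.1 and the build TAIR10 are named in the submitters' processing notes, and strand handling is not given in the sources used here. FPKM scales each library by its total, so a large change in a few abundant transcripts shifts all other values. The table holds no counts, and depth was estimated from the steps between low values. At the estimated depth 49.4% to 61.1% of the 1291 to 1406 low values used per library lay within 0.08 reads of a whole number. That was too few for a count test. Evenly spread values give 16% at a fixed depth. The depth was the one with the highest share, so 16% is not its chance level.

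The rule was applied to the values as deposited. The fit across genes was limma 3.58.1 (R 4.3.3) on log2(FPKM + 1), with trend, in the 19035 genes averaging 1 FPKM or more, with Benjamini-Hochberg adjustment and a threshold of 0.05. Differences of genes at low levels come out too small after adding 1. The script was tested on simulated data. Each p-value sets the difference between the groups against the spread among these libraries. Whether the libraries came from separate plates or harvests is not given. All members and gene lists were chosen with earlier results of these data known. Of 862 list symbols, 838 were matched to the reference and used.

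Genes named are the 30 with the widest gap, the 6 most abundant, the most and least even, list members, the leading members of each product class, neighbours and those at the thresholds. Others, and the sorting by function and family, were chosen after their values were seen. Lengths, neighbours and upstream sequences come from the RefSeq annotation of TAIR10.1, matched by identifier, and the deposited table has no coordinates, so none was carried between builds. Near copies were sought with BLAST+ 2.17.0 (at least 90% identity over 30% of the transcript). Alternatives were 2 other scalings, thresholds of the rule, pseudocounts, filters, a replicate block and leaving out each library. One upstream sequence is not reported here.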

Additional observations from a re-analysis of the deposited data

How the results depend on the processing

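The number of genes the rule took moved with its thresholds: 272 with a gap of 1.3-fold, 4 with a gap of 2-fold, 35 with a stricter limit on the evenness of controls and 205 with controls within 2 times, against 88. With a mean of at least 1 or 10 FPKM it was 123 or 60, with 1 FPKM added to each value 75 (65 shared with the 88). Leaving out 1 library gave 105 to 2133 genes. It was 2133 without control 1, 240 without control 2 and 197 without control 3. Without doxycycline libraries 1, 2 and 3 it was 105, 108 and 170. These sets held 86 to 88 of the 88, which says nothing of their stability. Leaving out a library only loosens the limits on evenness and gap, so a member could drop out only by its mean level. Limma called 0 genes lower, and 3 without the filter on low values. When 1 library was left out it called 0 to 6777. The 6777 came without control 1 and held all 88, which the rule had chosen from the same libraries. Without control 3 limma called 2. With the replicate number as a block it called 0. Same-numbered libraries deviated with correlations of -0.002, -0.014 and -0.137, so the numbers do not pair the libraries. The median log2 difference of the 88 was -0.94, and moved to -0.64 after median-of-ratios scaling and -0.61 after quantile normalization. It was -1.02 to -0.92 when 1 library was left out. The cause of these changes was not tested. Of 1232 values of single genes under alternatives 0 were reversed and 197 moved. The rule fixed the direction, so pseudocounts or a left-out library could not reverse it. Filters, robust variance and the replicate block leave the difference unchanged by design. Under median-of-ratios scaling most of the single genes moved. With 3 libraries a group and no counts, sampling error could not be separated from the spread between libraries.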
